A study of Mus musculus with 32 samples.

Results

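Insr, Tsc1, Pik3ca and Sos1 are 4 genes of insulin and mTOR signalling, and their RNA was followed in brain, muscle, kidney and pancreas of mice that lack Nox4. They are 4 of the 9030 gene symbols on a cDNA array and are read by 5 of its 20794 probes, 2 of them for Pik3ca and 1 for each other gene. The members were chosen by their mean log2 ratios in brain and muscle, with those values known. Levels in brain and muscle, and differences that involve either tissue, are therefore given as a description with no test, and tests are kept to kidney, pancreas and the difference between them.

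The tested animals were 4 male Nox4 knockout mice (-/-) on a C57BL/6 background, aged 17 weeks, and each gave all 4 tissues. Each tissue of an animal was read on 2 arrays that differ in which dye the knockout carries. The other channel of every array held a pool of wild-type RNA, from males matched in strain and age. The design text gives 4 animals for the pool and the labelling protocol gives 6, so the size of the pool is not settled. Which part of Nox4 was deleted, and whether the loss was limited to some cells, are not stated in the labels. Each value is a log2 ratio that likely runs knockout over wild-type pool, so 0 means equal signal. If it runs the other way, every sign below turns. A ratio from whole tissue cannot tell a change in RNA per cell from a change in the number of cells that hold it.

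Insulin binds the insulin receptor, a tyrosine kinase encoded by Insr, which phosphorylates docking proteins such as IRS1. These recruit PI 3-kinase, whose catalytic subunit p110α is encoded by Pik3ca, and the lipid it makes activates Akt. Akt phosphorylates the TSC complex of TSC1, TSC2 and TBC1D7, which otherwise keeps the GTPase Rheb off and so restrains the growth kinase mTOR in complex 1. In a parallel arm the adaptor Grb2 brings Sos1, an exchange factor that loads Ras with GTP, to the activated receptor. Nox4 makes hydrogen peroxide, which is known to inhibit phosphatases that oppose insulin signalling. In muscle the PI 3-kinase branch drives glucose uptake, and in brain the TSC complex is known as a restraint on neuronal growth.

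The promoters of 3 members are shown, since no promoter entry was at hand for Insr. These 3 genes are also the ones whose mean ratios in brain and muscle lay farthest apart. RefSeq (GRCm38.p6) gives 250 bases before and 50 after each annotated start, at chr2:28640983-28641282 on the + strand for Tsc1, chr3:32396815-32397114 on the + strand for Pik3ca and chr17:80480404-80480703 on the - strand for Sos1. The files name no build of their own. A single capital marks the first base of the annotated transcript, and the run of capitals in Pik3ca marks the match described after the sequences.
Tsc1: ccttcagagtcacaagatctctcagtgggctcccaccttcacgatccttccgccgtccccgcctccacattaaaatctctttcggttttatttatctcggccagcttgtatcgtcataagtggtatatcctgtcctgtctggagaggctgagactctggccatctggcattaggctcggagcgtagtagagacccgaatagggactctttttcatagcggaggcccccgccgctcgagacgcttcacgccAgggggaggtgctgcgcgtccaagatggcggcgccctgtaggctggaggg
Pik3ca: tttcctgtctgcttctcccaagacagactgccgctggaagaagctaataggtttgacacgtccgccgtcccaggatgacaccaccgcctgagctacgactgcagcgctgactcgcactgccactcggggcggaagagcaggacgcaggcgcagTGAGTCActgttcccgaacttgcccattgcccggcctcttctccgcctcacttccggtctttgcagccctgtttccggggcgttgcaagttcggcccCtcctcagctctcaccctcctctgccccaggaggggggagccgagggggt
Sos1: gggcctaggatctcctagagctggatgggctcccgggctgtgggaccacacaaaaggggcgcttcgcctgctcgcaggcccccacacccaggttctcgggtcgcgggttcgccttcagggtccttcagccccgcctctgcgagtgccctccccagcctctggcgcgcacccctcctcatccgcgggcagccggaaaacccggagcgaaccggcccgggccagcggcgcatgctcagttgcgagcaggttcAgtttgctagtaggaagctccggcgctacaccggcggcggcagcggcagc
The windows were 57.3% G or C in Tsc1, 63.3% in Pik3ca and 70% in Sos1, against a median of 52.7% over 32851 promoters. Each was searched on both strands for a FOXO motif (GTAAACA), the core of the antioxidant response element (TGACNNNGC) and an AP-1 motif (TGANTCA). The search found 1 match, the AP-1 letters TGAGTCA in Pik3ca. Of all promoters of this length 3.65% hold the FOXO letters, 12.4% the antioxidant response element core and 7.81% the AP-1 letters, so a match is a description and not a site.

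The arrays carried 19815 to 20684 values each, and no probe is named Nox4 (0 of 20794), so the deleted gene gives no check of the labels. The median over all genes was 0.01 in brain, -0.02 in muscle, 0.00 in kidney and 0.00 in pancreas, and the median SD between animals was 0.13, 0.17, 0.10 and 0.22 in the same order of tissues. Arrays of a tissue with the knockout in the same dye correlated across probes at r from 0.0317 to 0.482. Arrays of the same animal and tissue with exchanged dyes correlated at r from -0.576 to 0.0634. The median r of these pairs was -0.096 in brain, -0.124 in muscle, -0.164 in kidney and -0.351 in pancreas. The paired arrays averaged into an animal's value thus tended to run in opposite directions across probes, which limits every value given per animal. It is not settled whether the authors turned the ratios of swapped arrays before deposit. With the Cy3 knockout arrays turned, 12 of the 16 member means changed sign. Among them were Tsc1 in brain (0.069) and muscle (-0.0396), Pik3ca in muscle (-0.0101) and Sos1 in brain (0.14). Each direction given here thus holds for the signs as deposited. Values beyond 8 in size were positive on arrays with the knockout in Cy5 (920, against 0 negative) and negative on arrays with it in Cy3 (924, against 0 positive). The labelled tissues cannot be checked from ratios. Marker lists for 9 cell types in brain had medians from -0.06 (endothelium) to 0.11 (neuron), and 8 lists in muscle had medians from -0.14 (macrophage) to 0.06 (red cell). In kidney 9 lists had medians from -0.12 to 0.05, and in pancreas 9 lists from -0.15 to 0.04. The part of such shifts in the ratios of the members was not tested.

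Tsc1, the scaffold that stabilises TSC2 in the complex, stood on opposite sides of 0 in brain and muscle. In brain its log2 ratios were 0.13, -0.22, -0.21 and -0.69 in knockout animals 1 to 4, a mean of -0.24 ± 0.34 (SD, n = 4). In muscle they were 0.31, 0.50, 0.33 and 0.52, a mean of 0.41 ± 0.11 (SD, n = 4), or 1.33 times the pool. Every brain value lay below every muscle value, and all 8 muscle arrays lay above 0, as did the arrays of 1.56% of all genes. In brain 6 of 8 arrays lay below 0, and both arrays of animal 1 lay above. Without animal 4 the brain mean was -0.10, so this animal carries much of the distance from 0.

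Both dye orientations gave Tsc1 the same sign in each of these tissues. In brain the arrays that carried the knockout in Cy5 averaged -0.18 and those that carried it in Cy3 averaged -0.31, against 0.38 and 0.45 in muscle. Outside these tissues Tsc1 lay near 0. In kidney the values were 0.03, -0.01, 0.05 and -0.12 (mean -0.01 ± 0.07, SD, n = 4; limma adjusted p = 0.946). In pancreas they were -0.12, 0.12, -0.09 and 0.27 (mean 0.04 ± 0.19, SD, n = 4; limma adjusted p = 0.991). From high to low the order was muscle, pancreas, kidney and brain, and muscle overlapped with no other tissue while the other tissues overlapped with each other.

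**Figure D1:**
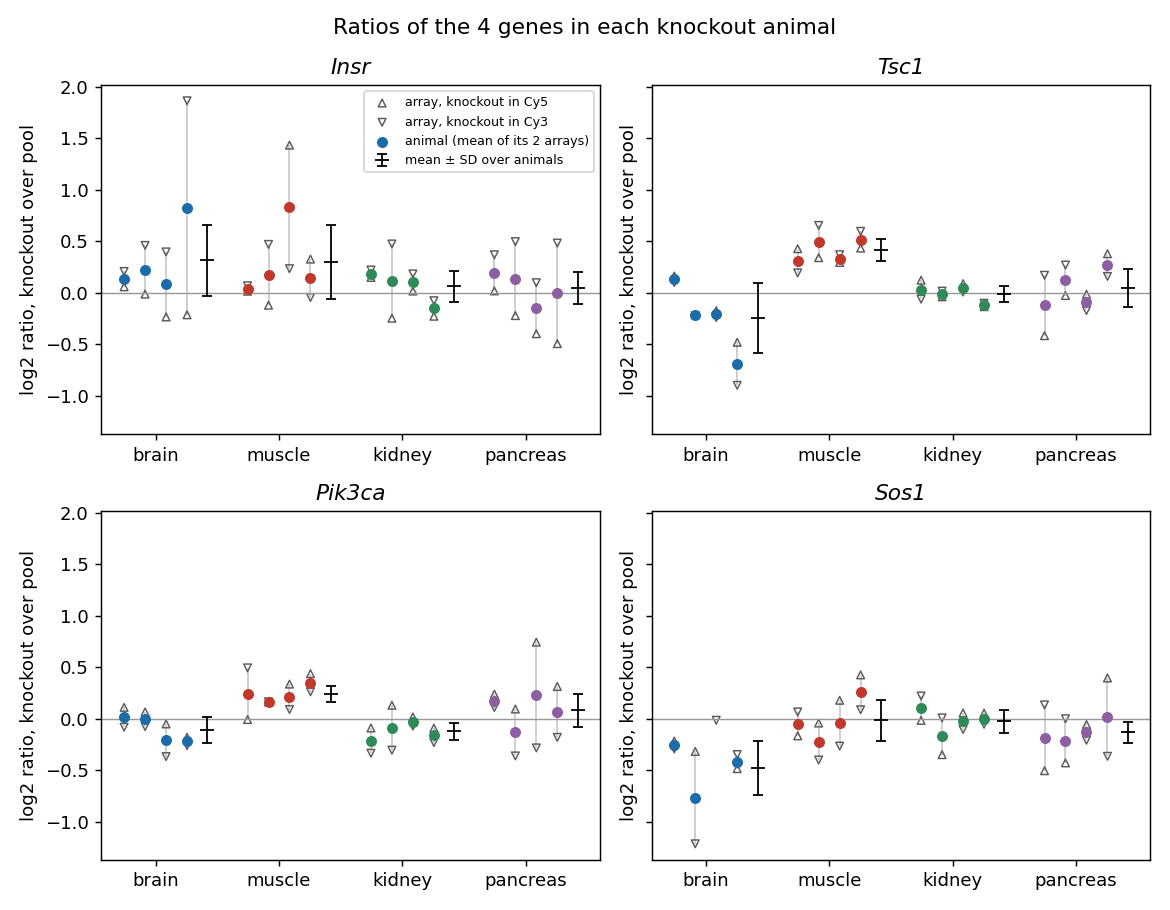
Log2 ratios of Insr, Tsc1, Pik3ca and Sos1 by tissue. Filled points are animals, each the mean of its 2 arrays, triangles are the single arrays by the dye of the knockout, and the black marks are the mean ± SD over animals. Tsc1 lies above 0 on all 8 muscle arrays, Sos1 below 0 on all 7 brain arrays, and Insr is drawn up by 1 array in brain and 1 in muscle.

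Pik3ca, the catalytic subunit p110α, was above 0 in muscle and slightly below 0 in brain and kidney. Its brain values, averaged over both probes, were 0.01, -0.01, -0.21 and -0.22 (mean -0.11 ± 0.13, SD, n = 4), and without animal 4 the mean was -0.07. In muscle they were 0.24, 0.16, 0.21 and 0.35 (mean 0.24 ± 0.08, SD, n = 4), or 1.18 times the pool. Every brain value lay below every muscle value, and 7 of 8 muscle arrays lay above 0. By dye, the brain arrays averaged -0.01 with the knockout in Cy5 and -0.20 with it in Cy3. The muscle arrays averaged 0.23 and 0.25 in the same order.

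In kidney Pik3ca had values of -0.21, -0.09, -0.03 and -0.16, below 0 in every animal, with a mean of -0.12 ± 0.08 (SD, n = 4). The share of all genes below 0 in all 4 kidneys was 9.84%, and the limma adjusted p of Pik3ca there was 0.525. The distance below 0 in kidney lay mostly in 1 dye orientation. The arrays averaged -0.01 with the knockout in Cy5 and -0.24 with it in Cy3. In pancreas the values were 0.17, -0.13, 0.23 and 0.07 (mean 0.08 ± 0.16, SD, n = 4; limma adjusted p = 0.991). The pancreas mean joins opposite signs, since the arrays with Cy5 knockout RNA averaged 0.35 and those with Cy3 knockout RNA averaged -0.18. The order was muscle, pancreas, brain and kidney, muscle overlapped with pancreas only, and the ranges of brain and kidney overlapped.

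The 2 Pik3ca probes, numbers 2987 and 20014, show how far the gene's mean is shared by its probes. They are a description, since the muscle mean that chose the gene is their average. In muscle probe 2987 had values of 0.10, 0.32, 0.06 and 0.39, a mean of 0.22 ± 0.17 (SD, n = 4). Probe 20014 had 0.39, 0.00, 0.37 and 0.31 in the same muscles, a mean of 0.27 ± 0.18 (SD, n = 4). Both means lay above 0 in muscle and in every animal, though the animals ranked differently on each probe. In kidney the probes parted, with means of -0.03 ± 0.13 for 2987 and -0.22 ± 0.09 for 20014 (SD, n = 4 each), the second below 0 on all 8 arrays and the first on 3 of 8. In brain too the distance below 0 came from probe 20014, at -0.21 ± 0.24, while probe 2987 averaged -0.01 ± 0.11 (SD, n = 4 each). 

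**Figure D2:**
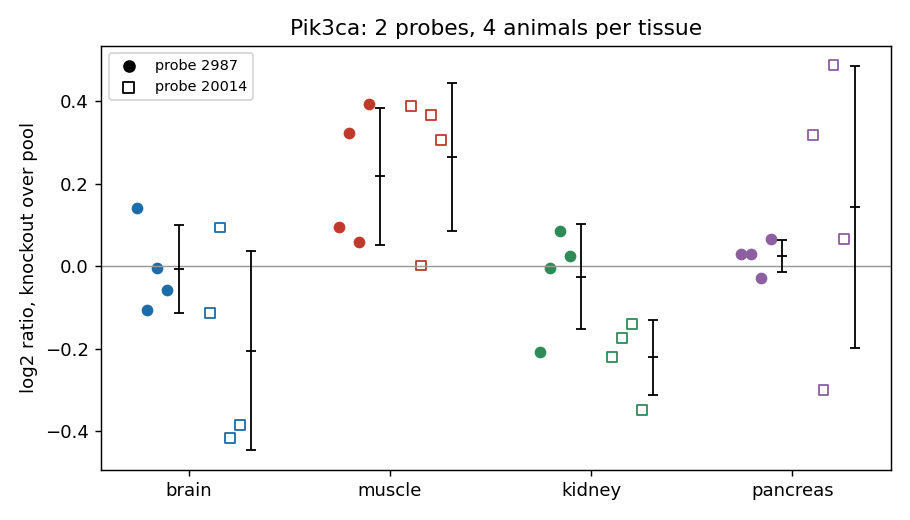
Log2 ratio of each Pik3ca probe by tissue, with 1 point per animal and black marks for the mean ± SD. In muscle the probe means are 0.22 and 0.27, and in kidney they are -0.03 and -0.22.

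Insr, the receptor itself, was above 0 in every animal of brain and of muscle, but 1 array in each tissue stood far above the rest. Its brain values were 0.13, 0.22, 0.08 and 0.83 (mean 0.32 ± 0.34, SD, n = 4). Its muscle values were 0.04, 0.18, 0.84 and 0.14 (mean 0.30 ± 0.36, SD, n = 4). In brain the high animal was animal 4, whose array with the knockout in Cy3 read 1.87, and in muscle it was animal 3, whose array with the knockout in Cy5 read 1.44. The other 7 arrays averaged 0.10 in brain, between -0.23 and 0.46, and 0.14 in muscle, between -0.12 and 0.47. Without the high animal the mean was 0.15 in brain and 0.12 in muscle.

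The spread of an array over all probes was wide where Insr was high. The array with the knockout in Cy3 of animal 4 had the widest spread of the brain arrays (SD 0.681), and both arrays of animal 3 had the widest of the muscle arrays (SD 0.690 and 0.692). Their part in the Insr values was not tested. In brain Insr also split by dye, at -0.10 where the knockout was in Cy5 and 0.73 where it was in Cy3, and 5 of 8 arrays lay above 0. In kidney Insr had values of 0.19, 0.11, 0.10 and -0.15 (mean 0.06 ± 0.15, SD, n = 4; limma adjusted p = 0.776). In pancreas it had 0.19, 0.14, -0.15 and 0.00 (mean 0.04 ± 0.15, SD, n = 4; limma adjusted p = 0.991). Both of these means join opposite signs by dye. Arrays with the knockout in Cy5 averaged -0.08 in kidney and -0.27 in pancreas, against 0.20 and 0.36 with it in Cy3. In muscle both orientations lay above 0, at 0.41 and 0.18. No tissue stood apart from another for Insr, whose order was brain, muscle, kidney and pancreas with all ranges overlapping.

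Sos1, the Ras exchange factor, had the lowest mean ratio of the 4 genes in brain. Its brain values were -0.26 in animal 1, -0.77 in animal 2 and -0.42 in animal 4 (mean -0.48 ± 0.26, SD, n = 3), and animal 3 lacked a value on 1 of its 2 arrays and was left out of the fit. All 7 brain arrays lay below 0, including the single array of animal 3 at -0.02. Among the genes with 3 measured brains, 16.1% were below 0 in all 3. The lowest array, at -1.22, was that of animal 2 with the knockout in Cy3, and the mean without animal 2 was -0.34. The other 6 arrays lay between -0.49 and -0.02.

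In muscle Sos1 had values of -0.05, -0.22, -0.04 and 0.26, a mean of -0.02 ± 0.20 (SD, n = 4). In kidney it had 0.10, -0.17, -0.03 and 0.00 (mean -0.02 ± 0.11, SD, n = 4; limma adjusted p = 0.902). In pancreas it had -0.19, -0.22, -0.13 and 0.01 (mean -0.13 ± 0.10, SD, n = 4; limma adjusted p = 0.991). Muscle and kidney lay around 0, pancreas lay below 0 in 3 of 4 animals, and the 3 brains with both arrays lay below every value of the other tissues. The single array of brain animal 3 lay inside the ranges of muscle, kidney and pancreas, and with it counted the brain mean was -0.36.

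Tsc1 and Pik3ca were lower in every brain than in every muscle. Sos1 was so in the 3 brains with both arrays, while the single array of brain animal 3 (-0.02) lay above 3 of the 4 muscle values. The difference, brain minus muscle, was -0.66 ± 0.14 for Tsc1, -0.35 ± 0.09 for Pik3ca and -0.46 ± 0.13 for Sos1 (SE of limma). Across all genes 3.25% showed such a gap, and nothing is read from the members' count, since the genes were selected on these values. Most genes in that share had 4 brain values, so it is not matched to Sos1 with 3. For Insr the difference was 0.02 ± 0.18 and the ranges overlapped. The 3 genes reached their gaps differently. The Tsc1 means lay on either side of 0, the Pik3ca gap lay mostly on the muscle side, and the Sos1 gap lay on the brain side with muscle at 0.

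Against kidney and pancreas the same genes split by tissue. The 3 brains with both arrays had lower Sos1 values than every kidney and every pancreas, at -0.46 ± 0.13 for brain minus kidney and -0.35 ± 0.13 for brain minus pancreas (SE), while the single array of brain animal 3 (-0.02) lay within both ranges. Of all genes 2.63% lay lower in every brain than in every kidney and 2.01% than in every pancreas. Most of those genes had 4 brain values, and a gap is easier to reach with 3. The share among genes with 3 brain values, as in Sos1, was not computed. Tsc1 was higher in muscle than in kidney by 0.43 ± 0.14 and than in pancreas by 0.37 ± 0.14, again with no overlap. Pik3ca was higher in muscle than in kidney by 0.36 ± 0.09 with no overlap, but overlapped in muscle and pancreas (0.16 ± 0.09). Over all genes, 3.23% lay higher in every muscle than in every kidney and 2.31% higher in every muscle than in every pancreas. These comparisons share tissues and are not separate evidence.

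Kidney and pancreas can be tested, and none of the 4 genes passed. The difference, kidney minus pancreas, was 0.02 ± 0.18 for Insr, -0.06 ± 0.14 for Tsc1, -0.21 ± 0.09 for Pik3ca and 0.11 ± 0.12 for Sos1 (SE). The limma adjusted p was 0.998, 0.991, 0.870 and 0.953 in the same order of genes. Of 16257 genes, 0 (0%) passed an adjusted p of 0.05 in this comparison, against 921 with an unadjusted p under 0.05. Pik3ca was among these.

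Taken by tissue, 3 of the 4 genes lay above 0 in all 4 muscles, against 6.85% of all genes. In brain 1 of the 3 genes with 4 values lay above 0 in all 4 animals, against 8.86% of all genes. Nothing is read from these muscle and brain counts, since the genes were selected on their mean ratios in those tissues. In kidney 1 of 4 (Pik3ca) lay below 0 in every animal, where 10.1% of all genes were above and 9.84% below in all 4. In pancreas 0 of 4 had 1 sign in every animal, where 5.42% of all genes were above and 5.15% below in all 4. Within each tissue limma called 0 genes at an adjusted p of 0.05, or 0%. Unadjusted p values under 0.05 were held by 4.13% of genes in brain, 7.29% in muscle, 9.28% in kidney and 2.91% in pancreas. 

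Probe number is a position in the array's list, and Tsc1 sits near its end, at 20755. Of the 139 probes within 100 numbers of it, the median in muscle was 0.06, with quartiles of -0.07 and 0.41, and 34 had a higher mean than Tsc1. Of the 124 with a value on each array, 18 lay above 0 on all 8 muscle arrays. Among probe numbers above 18714, 4.69% of probes did so (93 of 1982), against 1.30% at lower numbers (227 of 17504). In brain the neighbours' median was -0.10, and 125 of 139 lay higher than Tsc1. The neighbours thus lean the way Tsc1 does in both tissues, and their part in its values was not tested.

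With the median over the probes within 100 numbers subtracted on each array, Tsc1 averaged -0.14 ± 0.22 in brain and 0.25 ± 0.16 in muscle (SD, n = 4 each). The muscle values were then 0.11, 0.13, 0.30 and 0.45, still above every brain value, and the difference was -0.39. Muscle then overlapped with pancreas. For the other members the ranks among neighbours are given as a description, since extreme means chose these genes. For Pik3ca probe 20014, 190 of 200 neighbours in brain and 1 of 200 in muscle had a higher mean, and for probe 2987 these were 118 and 9 of 200. For Sos1 they were 197 of 200 in brain and 81 of 200 in muscle, and for Insr 5 and 6 of 200.

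**Figure D3:**
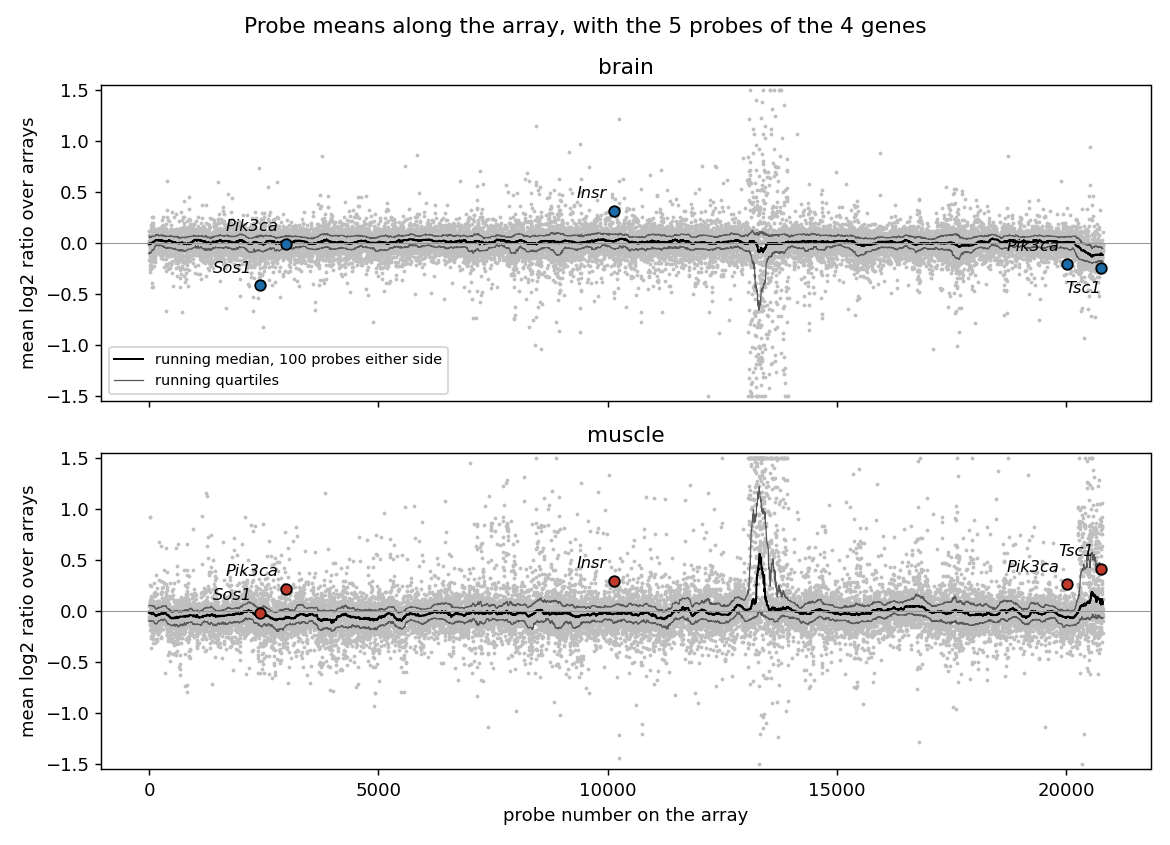
Mean log2 ratio of every probe against its probe number in brain and in muscle, values beyond 8 in size left out, with the member probes marked. Points beyond the axis are drawn at its edge, and lines are the running median and quartiles over 100 probes either side. Tsc1, at probe number 20755, lies in a stretch at the end of the list where muscle means spread upwards, and Pik3ca, Insr and Sos1 lie outside it. Another such stretch, with no member in it, lies beyond the middle of the list.

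The rest of the pathway was read from a list of 102 genes, of which 67 are on the array and 63 are not members. In brain 6 of 61 genes were above 0 and 8 below 0 in all 4 animals (9.84% and 13.1%), against 8.86% and 6.73% of all genes. In muscle 4 of 60 were above and 9 below (6.67% and 15%), against 6.85% and 12%. In kidney 3 of 61 were above and 9 below (4.92% and 14.8%), against 10.1% and 9.84%. In pancreas 3 of 59 were above and 5 below (5.08% and 8.47%), against 5.42% and 5.15%. The medians of these genes were 0.01 in brain, -0.03 in muscle, 0.01 in kidney and -0.02 in pancreas, each within 0.02 of the median of all genes. By limma 0 of them had an adjusted p under 0.05 in any tissue, and 1, 2, 2 and 1 had an unadjusted p under 0.05 in brain, muscle, kidney and pancreas. The values named in the next paragraphs therefore did not pass the test.

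Among the partners of TSC1, Tbc1d7, the third subunit of the complex, lay on the same sides of 0 as Tsc1 in brain and muscle. Its brain values were -0.07, -0.04, -0.13 and -0.31, below 0 on all 8 arrays, and its mean was -0.14 ± 0.12 (SD, n = 4). In muscle it had 0.17, 0.08, 0.34 and -0.04, a mean of 0.14 ± 0.16 (SD, n = 4). The highest brain value (-0.0405) and the lowest muscle value (-0.0370) nearly met. Tsc2, the subunit with the GTPase-activating domain, averaged 0.09 ± 0.18 in brain and 0.13 ± 0.30 in muscle (SD, n = 4 each) and changed sign among animals of both. Rheb, the GTPase that the complex acts on, averaged 0.07 ± 0.08 in brain and -0.08 ± 0.16 in muscle (SD, n = 4 each), likewise with both signs.

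Irs1, the docking protein that binds the receptor, was below 0 in all 4 muscles, at -0.13, -0.26, -0.68 and -0.03 (mean -0.28 ± 0.29, SD, n = 4). Of the 8 muscle arrays, 3 lay above 0 for Irs1. In animal 3, the muscle with the lowest Irs1 value, Insr was highest, through 1 array that read 1.44. Both arrays of this animal had the widest spread of the muscle arrays, and a link between these genes was not tested. In brain Irs1 averaged 0.09 ± 0.11 (SD, n = 4). Among regulatory subunits of PI 3-kinase, Pik3r2 was below 0 in all 4 brains, at -0.11, -0.05, -0.13 and -0.22, and averaged 0.03 ± 0.17 in muscle (SD, n = 4). Pik3r3 averaged -0.06 ± 0.17 in brain and -0.08 ± 0.09 in muscle (SD, n = 4 each). Grb2, the adaptor that carries Sos1, stayed within 0.06 of 0 in every brain and averaged 0.01 ± 0.05 there (SD, n = 4), beside -0.48 for Sos1.

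Further down the pathway, Akt2, the Akt form tied to glucose uptake, was above 0 on all 8 muscle arrays over 3 probes. Its muscle values were 0.11, 0.50, 0.17 and 0.22 (mean 0.25 ± 0.17, SD, n = 4). On the other side of 0 in muscle were Ptpn11, a phosphatase that helps growth factor receptors signal to Ras, at -0.22 ± 0.17, and Inpp5d, a lipid phosphatase of blood cells, at -0.16 ± 0.09. Mlst8, a subunit of both mTOR complexes, lay at -0.15 ± 0.17 and Ulk1, an autophagy kinase that mTOR restrains, at -0.14 ± 0.19 (SD, n = 4 each). In brain Ulk1 lay above 0 in every animal, at 0.12 ± 0.11. Gab1, a docking protein, had 0.10 ± 0.06 and Nf1, which switches Ras off, had 0.09 ± 0.05, while Stk11, the kinase upstream of AMPK, had -0.12 ± 0.14 (SD, n = 4 each). The same sign in 4 animals did not mean that single arrays agreed. Of 8 brain arrays, 7 lay above 0 for Gab1, 6 for Ulk1, 4 for Nf1 and 3 for Stk11. Of 8 muscle arrays, 4 lay above 0 for Ulk1, 3 for Inpp5d, 2 for Ptpn11 and 2 for Mlst8.

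In kidney Inpp5d had 0.20 ± 0.29, with animal 3 at 0.63 and animal 1 at 0.00, and Irs3 had 0.16 ± 0.06 (SD, n = 4 each). Rps6, the ribosomal protein phosphorylated below mTOR, had 0.10 ± 0.02 and Grb10, an inhibitor of the insulin receptor, -0.10 ± 0.08 (SD, n = 4 each). In pancreas Rps6kb2, an S6 kinase, had values of -0.29, -0.37, -0.22 and -0.28, a close set, with a mean of -0.29 ± 0.06 (SD, n = 4; limma adjusted p = 0.991). Lamtor3 and Lamtor1, parts of the scaffold that holds mTOR complex 1 at the lysosome, had 0.23 ± 0.23 and 0.17 ± 0.18 (SD, n = 4 each). Pik3cb, the p110β subunit, averaged 1.77 there. In animal 1 an array holds a Pik3cb value beyond 8 in size, and that animal stood at 6.31, with the others between 0.03 and 0.68.

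**Figure D4:**
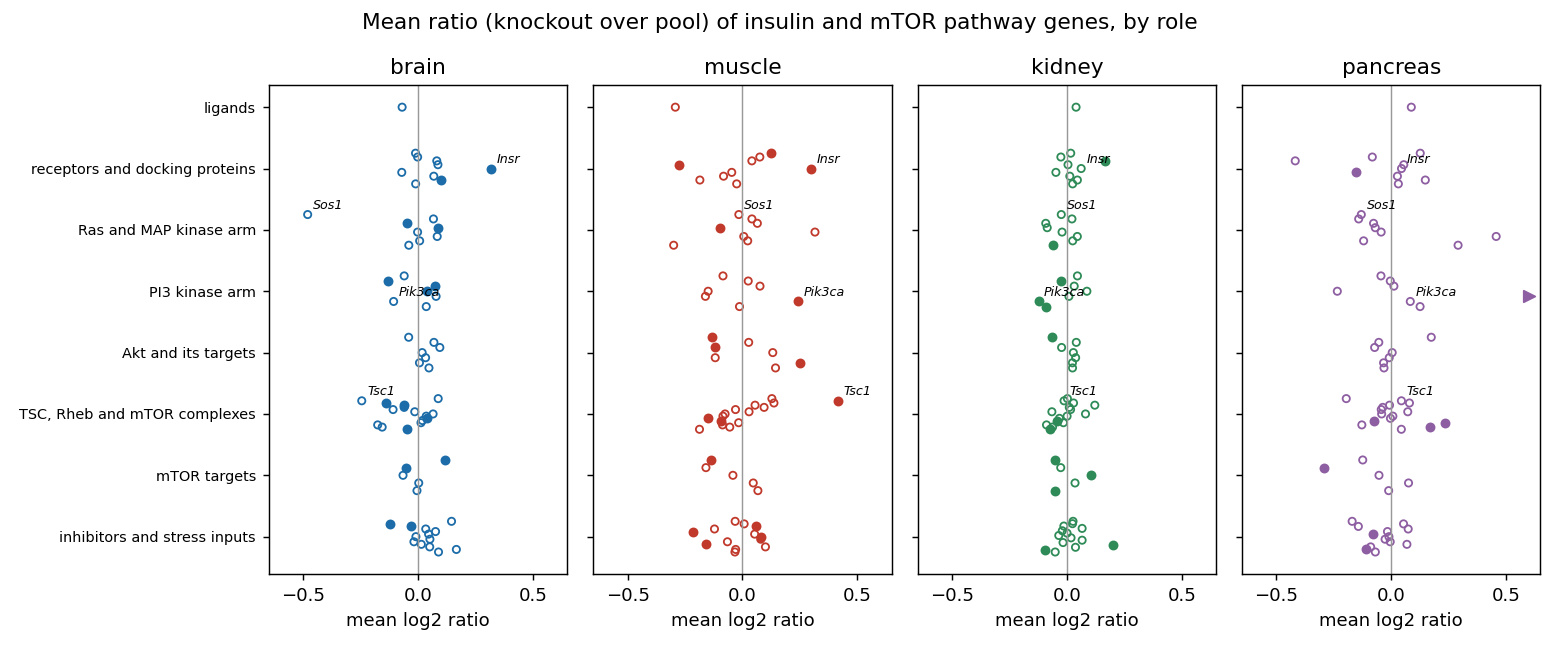
Mean log2 ratio over animals of each measured pathway gene by role and tissue, 1 point per gene, with the 4 members labelled. Filled points have the same sign in 4 animals, and Pik3cb in pancreas (1.77) is drawn as a triangle at the edge of the axis. Most genes of every role lie near 0, and in muscle Tsc1 (0.41) is the highest.

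Likeness was measured as Pearson's r over the 16 values of 4 tissues in 4 animals, among 7719 genes (15 values and 7720 genes for Sos1), and is a description. Points of the same array and animal share its spread and dye effects. Tsc1 was most like Il11 (r = 0.927), Ccdc28a (0.911) and Hs6st1 (0.896). Il11 is read by probe 20316, also above 18714, and averaged -0.19 in brain and 0.41 in muscle. Ccdc28a, whose lower-numbered probe of 2 is 18808, lies above 18714 as well and averaged -0.20 in brain and 0.53 in muscle. Hs6st1, at probe 2536, averaged -0.23 in brain and 0.31 in muscle. Pik3ca was most like Tapbp (0.822), Gpr132 (0.791) and Asl (0.789).

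Sos1 was most like Pih1d1 (0.871), Alox12e (0.865) and Kcnu1 (0.789), of which Alox12e was lower in brain than Sos1, at -0.74. Insr was most like Trpm6 (0.877), Pum2 (0.842) and Plxna2 (0.838), all above 0 in brain and muscle. Among the members, the values of Tsc1 and Pik3ca correlated at r = 0.655 (n = 16) and those of Tsc1 and Sos1 at r = 0.559 (n = 15). With each tissue's mean removed these came to 0.181 and 0.258, so most of the likeness lay in the tissue means by which the genes were selected. Insr and Tsc1 correlated at -0.221, and at -0.487 with tissue means removed (n = 16).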

How the data were processed

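The authors deposited a log2 ratio for each probe on each array. The log base is unstated and taken as 2 from how large the values are. The scanner, the background correction and the normalisation were not given in the sources used here. Cy3 or Cy5 labelling started from 20 µg of total RNA, per the labels' protocols. Values beyond 8 in size (1844 of 655162) were kept, and taken as missing in an alternative. A probe annotation gave 12771 probes 1 symbol, 0 several and 8023 none. Probes of a symbol and the 2 arrays of an animal were averaged, with both arrays required, leaving 17053 units called genes. Signs were kept as deposited. The number of animals and the single pool limit precision.

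Limma 3.58.1 (R 4.3.3) tested each tissue's mean against 0, two-sided, with at least 3 animals, and tissue differences in 1 fit of 4 tissues, with Benjamini-Hochberg adjustment over all genes. Its p-values leave out the spread between wild-type animals, since the pool is 1 control sample. Its code was tested on simulated data. By the source labels, which give the same 4 mouse identities in every tissue, each animal gave every tissue, so animal numbers pair the tissues. Deviations of an animal from its tissue means correlated between tissues at r from -0.0898 to 0.101 (n = 24).

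The members and lists were chosen with earlier results of these data known. Named pathway genes are those with 1 sign in all 4 animals, by size of the mean, up to 6 in brain and in muscle and up to 4 in kidney and in pancreas, and the measured partners that bind a member. Likeness took the 3 highest correlations, among genes with no value beyond 8 in size. Alternatives were turned signs, centred arrays, other rules for missing values, probes taken singly, local medians, robust moderation, other fits and each animal left out.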

Additional observations from a re-analysis of the deposited data

Results flagged for a closer look

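In groups of 4 animals, 7 of 60 gene and tissue combinations had 1 animal far from the others by Dixon's criterion. Chance meets it in about 1 of 20 groups that were not chosen by their values. The members and many of the named pathway genes were chosen by their means or signs, so nothing is read from this count. Insr in muscle had animal 3 at 0.835, against 0.04 to 0.18 in the others, and this animal's arrays had the widest spread of the muscle arrays. The remaining 6 were pathway genes. In muscle these were Ptpn11 in animal 4 at -0.467, Inpp5d in animal 1 at -0.021 and Ulk1 in animal 3 at -0.423. Grb10 in kidney had animal 2 at -0.222. In pancreas Pik3cb had animal 1 at 6.31, which holds a value beyond 8 in size, and Lamtor3 had animal 3 at 0.578.

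In 6 of 153 pairs of tissues every animal of 1 tissue lay on the opposite side of 0 from every animal of the other. The share of all genes that do so was not computed, so nothing is read from the count. The difference was not tested, and the genes had been named for having 1 sign in a tissue or were selected on their values. For Pik3ca muscle minus kidney was 0.364. Ulk1 had 0.254 for brain minus muscle and 0.171 for brain minus kidney. Nf1 had 0.185 and Mlst8 had 0.187 for brain minus muscle. Inpp5d had -0.360 for muscle minus kidney.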

How the results depend on the processing

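With the arrays that hold the knockout in Cy3 turned, 12 of 16 member values changed sign, so every direction above rests on the signs as deposited. Insr changed to -0.42 in brain, -0.14 in kidney and -0.32 in pancreas. Tsc1 changed in every tissue, to 0.069 in brain, -0.0396 in muscle, 0.022 in kidney and -0.063 in pancreas. Pik3ca changed to 0.0916 in brain, -0.0101 in muscle and 0.11 in kidney, and Sos1 to 0.14 in brain and 0.11 in muscle. Pik3ca (0.26) and Sos1 (-0.0192) in pancreas kept their sign but moved in size. Pathway genes above 0 in all 4 animals, members included, then numbered 13 in brain, 13 in muscle, 9 in kidney and 15 in pancreas (7, 7, 3 and 3 with signs as deposited), and those below 0 numbered 14 in muscle and 17 in pancreas (9 and 5). Subtracting local medians set Tsc1 at 0.25 in muscle and changed 1 of 16 signs, as did the median over arrays, chosen after seeing the data. Leaving out an animal changed 5 of 64, and other settings changed 0.

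Genes called in brain, muscle, kidney and pancreas numbered 0 as reported. With turned arrays they numbered 1 in brain, 328 in muscle and 2388 in pancreas, with a shared spread 255 in muscle and 57 in pancreas, and in kidney 1 with values beyond 8 missing and 1 with robust moderation. Leaving out an animal gave 0 to 1 in brain and in muscle. Brain minus muscle had 75 calls, with 1 turned, 114 with such values missing, 0 with the replicate block, 0 in a fit of these 2 tissues and 0 to 223 without an animal. Muscle minus kidney had 2, with 0 turned, 0 with the block, 0 in the fit of both alone and 0 to 44 without an animal. Muscle minus pancreas had 94, with 5 turned, 151 with such values missing, 24 with the block, 0 in the fit of both alone and 1 to 115 without an animal. Brain minus kidney, brain minus pancreas and kidney minus pancreas had 0, with 1510 for brain minus pancreas and 355 for kidney minus pancreas turned, and 0 to 1, 0 to 7 and 0 to 3 without an animal. The causes were not tested.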
